A study of Sebastes schlegelii with 6 samples.

Results

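The genes of ubiquinone synthesis were examined in the liver of the Korean rockfish, Sebastes schlegelii, a marine teleost. The genes were chosen by deposited symbol: PDSS1, PDSS2 and the COQ genes with numbers 2 to 10, ignoring case, allowing paralog letters and keeping every copy. Of 19303 genes in the count table, 13 met this rule, and 10 of its 11 symbols were represented (coq4 was not analysed here). All 13 passed the filter on low counts, which kept 13338 genes. Whether each of them, PDSS1 included, is the counterpart of its namesake in other species could not be checked without sequences. RNA was sequenced in 3 liver libraries of fish starved for 72 days and 3 liver libraries of fish fed over 72 days. The labels give neither strain, sex, age or genetic change nor whether each library is a fish of its own, so that p-values measure only the spread between these libraries, which may be technical.

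Ubiquinone, or coenzyme Q, is the lipid that carries electrons within the inner mitochondrial membrane, from the dehydrogenases of the respiratory chain and of several breakdown pathways to complex III. Its long isoprenoid tail is built by a synthase of the PDSS1 and PDSS2 subunits from precursors of the mevalonate pathway, which also feeds cholesterol synthesis. COQ2 joins this tail to a ring derived from tyrosine, and the other COQ proteins then modify the ring or organise the enzymes on the membrane. These roles were worked out mainly in yeast and mammals.

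Total counts lay between 13469708 and 14716282 in starved libraries and between 11623356 and 13029074 in fed libraries. Fed replicate 1 stood apart. Across genes, its Pearson r with fed replicates 2 and 3 was 0.864 to 0.88 on log2 CPM (counts scaled to a common library size), against 0.942 between those 2 libraries. Spliced reads made up 50.8% to 53.3% of uniquely mapped reads in starved libraries, 41.7% in fed replicate 1 and 50.7% and 51.1% in the other fed libraries. The hepatocyte marker list held 22 tested genes with summed levels of 156555 to 194198 CPM in starved and 138250 to 279436 CPM in fed libraries, and 1 of them (AHSG) was called lower in starved liver. Over all tested genes edgeR called 5.16%. Exocrine pancreas markers summed to 16.5, 19.8 and 325 CPM in starved replicates 1 to 3 and to 8.12 to 66.2 CPM in fed libraries. Of 7 tested, 0 were called by edgeR or DESeq2 and 0 had an unadjusted p under 0.05. All 7 log2 fold changes were positive (median 1.88). Red cell markers summed to 436 to 2212 CPM in starved and 1082 to 3035 CPM in fed libraries (1 of 8 called, lower). All 8 were negative (median -0.97), and 2 had an unadjusted p under 0.05, against 21.9% of all tested genes. The leukocyte list summed to 181 to 366 CPM in starved and 143 to 235 CPM in fed libraries (0 of 6 called by edgeR or DESeq2, and 0 at an unadjusted p under 0.05). All 6 had a positive log2 fold change (median 0.46). Endothelial and stellate cell markers summed to 111 to 134 CPM in starved and 239 to 338 CPM in fed libraries, and the 2 of 8 tested genes called, both COL1A1, were lower in starved liver. Over the 8 the median log2 fold change was 0.23, with 4 positive and 4 negative: the 2 CDH5 genes stood at 0.54 and 0.76, kdr at 0.46 and the 2 PECAM1 genes at 0.57 and 0.00. The tested LRAT copy stood at -1.72 (edgeR adjusted p = 0.0561). It had 6.66, 12.1 and 9.77 CPM in starved libraries and 46.9, 15.5 and 32.1 CPM in fed libraries. The other 2 of 3 LRAT copies had no count in any starved library and at most 0.539 CPM in a fed one. The part of these cells in the results below was not tested, and in whole liver fewer cells of a type cannot be told apart from less RNA per cell.

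Starved and fed livers were compared to see which ubiquinone genes differ with feeding state. PDSS1, a subunit of decaprenyl-diphosphate synthase, was far lower in starved liver, and coq10b-a, a ubiquinone-binding protein gene, was lower as well. The other 11 genes did not pass the test. In the quasi-likelihood test of edgeR on counts, fitted over all 13338 tested genes (call threshold 0.05 after Benjamini-Hochberg adjustment), 2 of 13 ubiquinone genes fell and 0 rose. Over all tested genes 5.16% were called, 2.98% lower and 2.18% higher in starved liver. At an unadjusted p under 0.05 there were 4 of 13 ubiquinone genes (PDSS1, coq10b-a, coq10b and 1 copy of coq8a), against 21.9% of all tested genes. The fall of PDSS1 was known from earlier work on these data when the group was chosen, so its call describes these libraries and is no separate support.

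**Figure D1:**
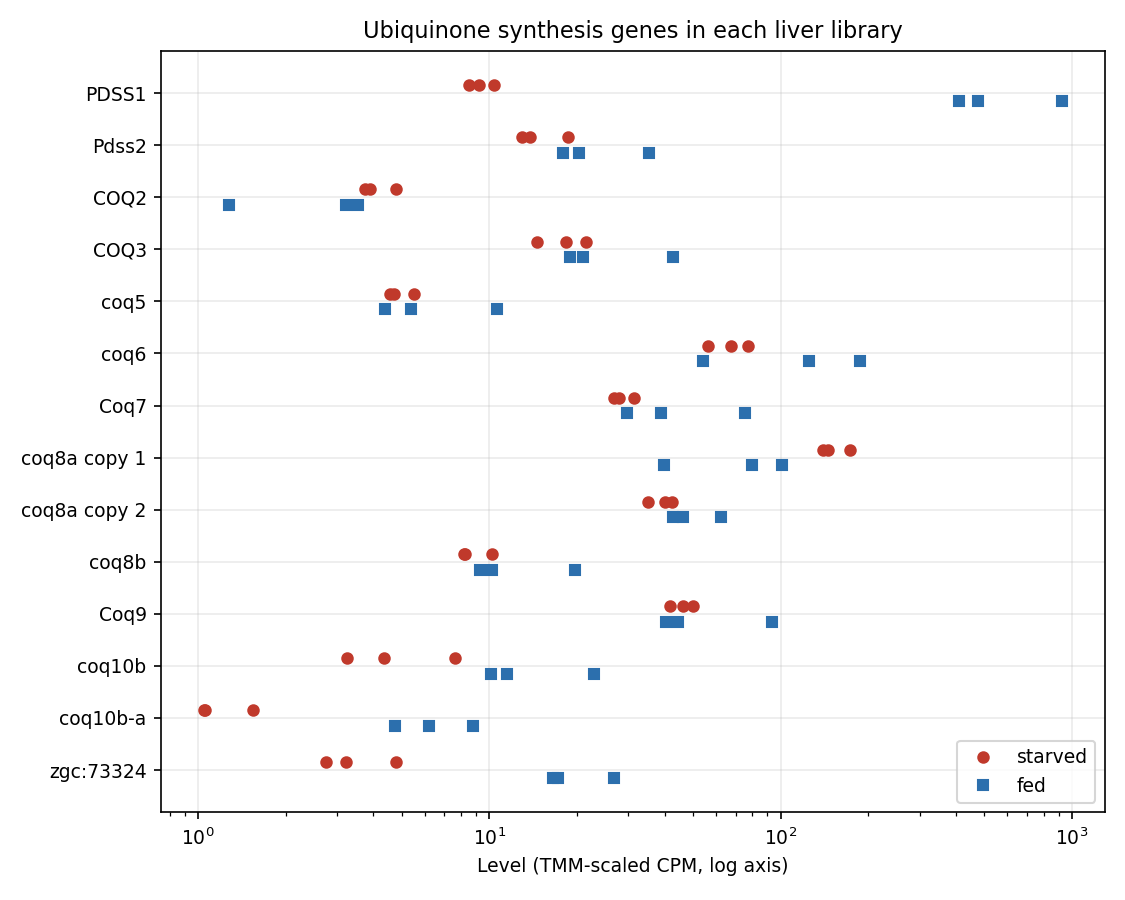
Level of each ubiquinone gene in each library, in CPM scaled by TMM on a log axis, with starved libraries as red circles above fed libraries as blue squares; zgc:73324 is a related gene outside the rule. PDSS1 lay at 8.5 to 10.4 CPM in starved and 410 to 923 CPM in fed libraries, a wider separation than for any other gene plotted.

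PDSS1 (S.schlegelii_GLEAN_10016645) had 120, 158 and 126 counts in starved replicates 1 to 3, against 7956, 7484 and 5328 counts in fed replicates 1 to 3. On the CPM scale, with library sizes adjusted by TMM, these were 8.5, 10.4 and 9.25 CPM in starved liver and 923, 475 and 410 CPM in fed liver. The lowest fed library was thus far above the highest starved one, and the starved libraries lay close together. The means were 9.39 ± 0.963 CPM in starved and 602 ± 279 CPM in fed liver (SD, n = 3 each). The fitted log2 fold change was -6.00 with a standard error of 0.465, a level 64.1-fold lower in starved liver (edgeR adjusted p = 0.00199). It ranged from -6.21 to -5.56 over 15 other settings and left-out libraries, all of them past the threshold. The authors' deposited table gives a starved over fed ratio of 0.0157 and a q-value of 8.10e-52 for this gene.

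FPKM values, which are scaled by library and by gene length in kilobases, allow levels to be set side by side between genes. PDSS1 had 6.99, 8.8 and 6.72 FPKM in starved libraries and 537, 451 and 340 FPKM in fed libraries. Ordered by FPKM among all 19303 genes, it stood at places 6095, 5296 and 5781 in starved libraries and at places 253, 286 and 328 in fed libraries. Among the 13 ubiquinone genes it was the most abundant in each fed library, and stood at place 8, 8 and 9 in the starved libraries. It made up 2.05% to 3% of their summed FPKM in starved liver and 51.6% to 59.1% in fed liver. Without PDSS1, the summed level of the other 12 genes was 296 ± 34 FPKM in starved and 365 ± 61.7 FPKM in fed liver (SD, n = 3 each), and the ranges of the groups overlapped.

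**Figure D2:**
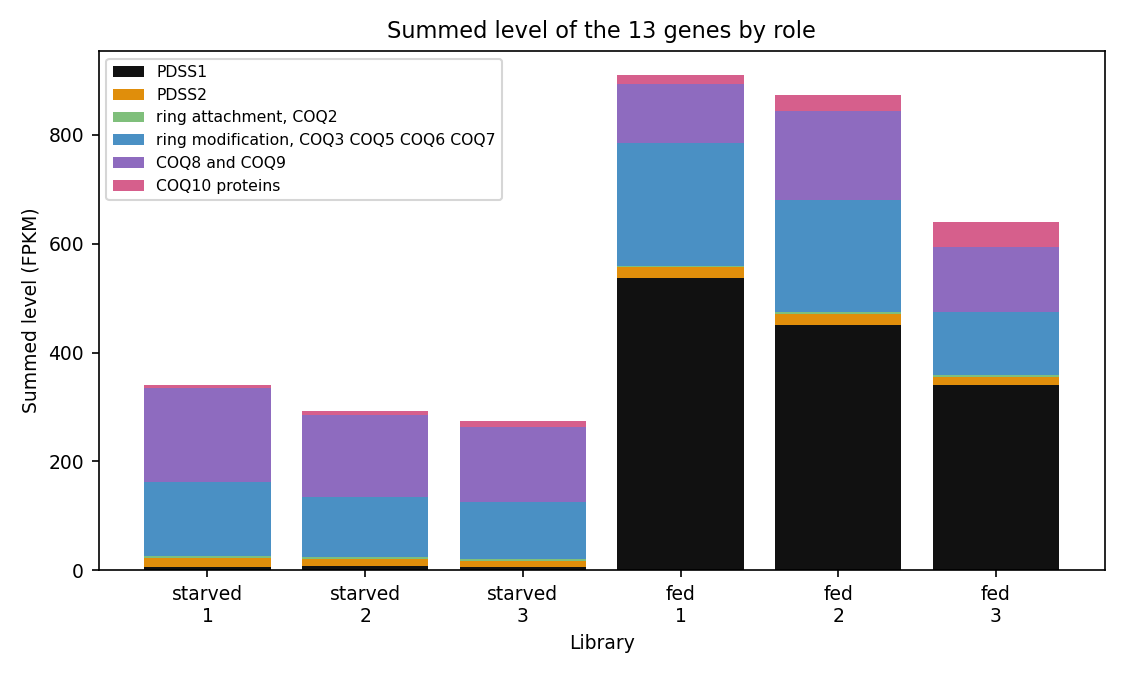
Summed FPKM of the 13 ubiquinone genes in each library, stacked by the role of the protein. PDSS1, in black, makes up 2.05% to 3% of the bar in starved libraries and 51.6% to 59.1% in fed libraries, while the stack of the other 12 genes spans 268 to 334 FPKM in starved and 300 to 423 FPKM in fed libraries.

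Pdss2 encodes the subunit that pairs with PDSS1 in mammals. Its level was 18.7, 13.8 and 12.9 CPM in starved libraries and 35.3, 20.4 and 17.9 CPM in fed libraries. The groups overlapped at starved replicate 1 and fed replicate 3, and the highest library was fed replicate 1. The log2 fold change was -0.69 with a standard error of 0.318, which missed the threshold (edgeR adjusted p = 0.252; 0.198 to 0.535 over the other settings and left-out libraries).

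The balance of the subunits was compared library by library at the level of RNA, and protein was not measured here. Per kilobase, PDSS1 stood at 0.44, 0.728 and 0.692 times the Pdss2 level in starved libraries, and at 25.3, 22.5 and 22.2 times that level in fed libraries. On log2 CPM, the PDSS1 to Pdss2 ratio was -0.67 ± 0.40 in starved and 4.59 ± 0.10 in fed liver (SD, n = 3 each). The difference of -5.26, a ratio 38.4-fold lower in starved liver, had p = 0.1 in a two-sided exact permutation test over the 6 libraries, the smallest p that 3 against 3 allows. The starved and fed ratios did not overlap. Because the fall of PDSS1 was known beforehand, neither this separation nor the p-value is separate support.

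**Figure D3:**
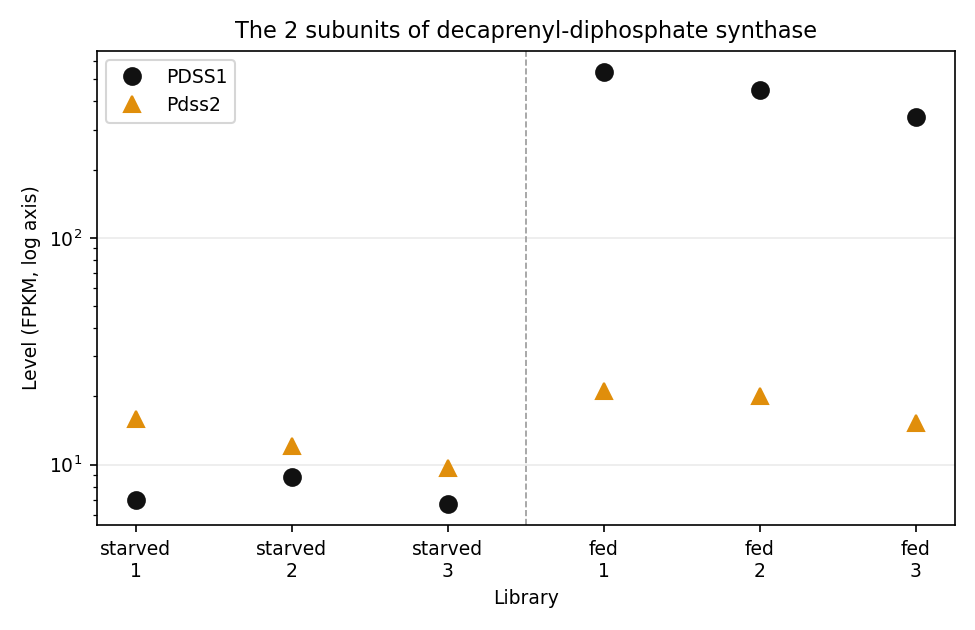
FPKM of PDSS1 (black circles) and Pdss2 (orange triangles) in each library, on a log axis. PDSS1 lies below Pdss2 in each of the 3 starved libraries and at 22.2 to 25.3 times its level in the 3 fed libraries.

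COQ2, the membrane enzyme that attaches the tail to 4-hydroxybenzoate, was among the least abundant of the group. It had 53, 59 and 65 counts in starved libraries and 11, 51 and 46 counts in fed libraries, which is 3.75, 3.89 and 4.77 CPM in starved liver and 1.28, 3.23 and 3.54 CPM in fed liver. The groups did not overlap, but the starved values lay only just above fed replicates 2 and 3. Its log2 fold change of 0.60 (standard error 0.41) did not pass (edgeR adjusted p = 0.43).

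The enzymes that modify the ring did not pass in any fit that was run. They are COQ3 and coq5, the methyltransferases of the pathway, coq6, a flavin-dependent hydroxylase, and Coq7, the hydroxylase of the penultimate step. coq6, the most abundant of them in CPM, had 77.3, 56.3 and 67.8 CPM in starved libraries and 187, 125 and 54.2 CPM in fed libraries. Its fed values spread more than 3-fold and fed replicate 3 lay below all starved libraries. Coq7 had 31.3, 26.9 and 27.8 CPM in starved libraries and 75.6, 38.7 and 29.7 CPM in fed libraries. COQ3 had means of 18.1 ± 3.39 CPM in starved and 27.6 ± 13.2 CPM in fed liver, and coq5 had 4.92 ± 0.526 CPM in starved and 6.78 ± 3.31 CPM in fed liver (SD, n = 3 each). In all 4 genes the groups overlapped. Their log2 fold changes were -0.60 for COQ3, -0.45 for coq5, -0.86 for coq6 and -0.74 for Coq7, with edgeR adjusted p from 0.273 to 0.527.

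COQ8A and COQ8B are atypical kinases of the aarF family that are needed to keep the ubiquinone enzyme complex together, and 2 genes carried the symbol coq8a. The more abundant of them, copy 1 (S.schlegelii_GLEAN_10019372), was the member with the largest positive log2 fold change. It had 173, 145 and 140 CPM in starved libraries and 39.7, 101 and 79.9 CPM in fed libraries. Every starved library was above every fed one, with fed replicate 1 the lowest. The log2 fold change of 1.05 (standard error 0.365) did not pass in edgeR (adjusted p = 0.138). It passed with the DESeq2 Wald test (adjusted p = 0.0473), a test that called 10.1% of genes, and the authors' deposited table gives a ratio of 2.09 with a q-value of 0.0499. Of the 16166 genes with a q-value in the authors' deposited table, 9.49% were under 0.05, among them 4 of the 13 (PDSS1, coq10b-a, coq10b and this copy).

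Copy 2 of coq8a (S.schlegelii_GLEAN_10017234) had 42.3, 35 and 40 CPM in starved libraries and 42.8, 62.2 and 46.3 CPM in fed libraries. Its log2 fold change was -0.37 (standard error 0.248; edgeR adjusted p = 0.425). Copy 1 stood at 4.08, 4.14 and 3.51 times copy 2 in starved libraries and at 0.927, 1.62 and 1.73 times copy 2 in fed libraries. This difference of 1.50 on the log2 scale had p = 0.1 in a two-sided exact permutation test, the smallest possible, and was examined after the values were seen. The labels and file headers do not say how reads shared by similar copies were assigned, so the split between the copies is uncertain.

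coq8b had 10.2, 8.24 and 8.22 CPM in starved libraries and 19.7, 9.32 and 10.2 CPM in fed libraries. Coq9, a lipid-binding partner of COQ7, had 46.2, 41.8 and 49.9 CPM in starved libraries and 93.4, 44.3 and 40.3 CPM in fed libraries. In both genes the groups overlapped in CPM, and fed replicate 1 was about 2 times the other fed libraries on that scale. The TMM factor of fed replicate 1 was 0.7426, against 1.213 and 1.058 for fed replicates 2 and 3. In FPKM the gap was smaller, with 68.1, 52.7 and 41.8 for Coq9 in fed replicates 1 to 3. For coq8b these were 7.68, 5.92 and 5.64 FPKM, against at most 5.61 FPKM in starved libraries. Neither passed, with log2 fold changes of -0.55 for coq8b and -0.36 for Coq9 (edgeR adjusted p = 0.38 and 0.586).

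COQ10 proteins bind ubiquinone and are needed in yeast for its function in respiration. Of this branch, coq10b-a (S.schlegelii_GLEAN_10013602), whose deposited product name is a homolog A of COQ10, was the second ubiquinone gene to pass. It had 15, 16 and 21 counts in starved libraries and 41, 98 and 114 counts in fed libraries. In CPM it stood at 1.06, 1.05 and 1.54 in starved liver and at 4.75, 6.21 and 8.77 in fed liver, with no overlap. It fell by 2.43 on the log2 scale with a standard error of 0.373, a level 5.39-fold lower in starved liver (edgeR adjusted p = 0.0132). It no longer passed when starved replicate 1, 2 or 3 was left out (adjusted p up to 0.0813), fits in which 0.742%, 1.07% and 0.951% of the genes tested were called, and it passed in the other fits.

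The second gene of the branch, coq10b (S.schlegelii_GLEAN_10010393), had 3.26, 4.35 and 7.64 CPM in starved libraries and 10.1, 11.5 and 22.9 CPM in fed libraries. The groups did not overlap. Its log2 fold change of -1.55 (standard error 0.436) did not pass in edgeR (adjusted p = 0.0842) and passed with the DESeq2 Wald test (adjusted p = 0.0191). The authors' deposited table gives a ratio of 0.345 and a q-value of 0.0206 for it.

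Another gene, zgc:73324, has a product name of the same kind but falls outside the symbol rule, and was taken up after its values were seen. It had 2.76, 3.23 and 4.77 CPM in starved libraries and 16.5, 17.2 and 26.8 CPM in fed libraries. It fell by 2.49 on the log2 scale with a standard error of 0.332 (edgeR adjusted p = 0.00757), and was no longer called when starved replicate 1 or 2 was left out (adjusted p up to 0.0594). In all 3 of these genes the groups were separate in CPM, and fed replicate 3 was the highest library in CPM and in FPKM. The 4 ring enzymes were highest in fed replicate 1 in CPM, whereas in FPKM coq6 was highest in fed replicate 2 (84.5 FPKM, against 77.7 FPKM in fed replicate 1).

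**Figure D4:**
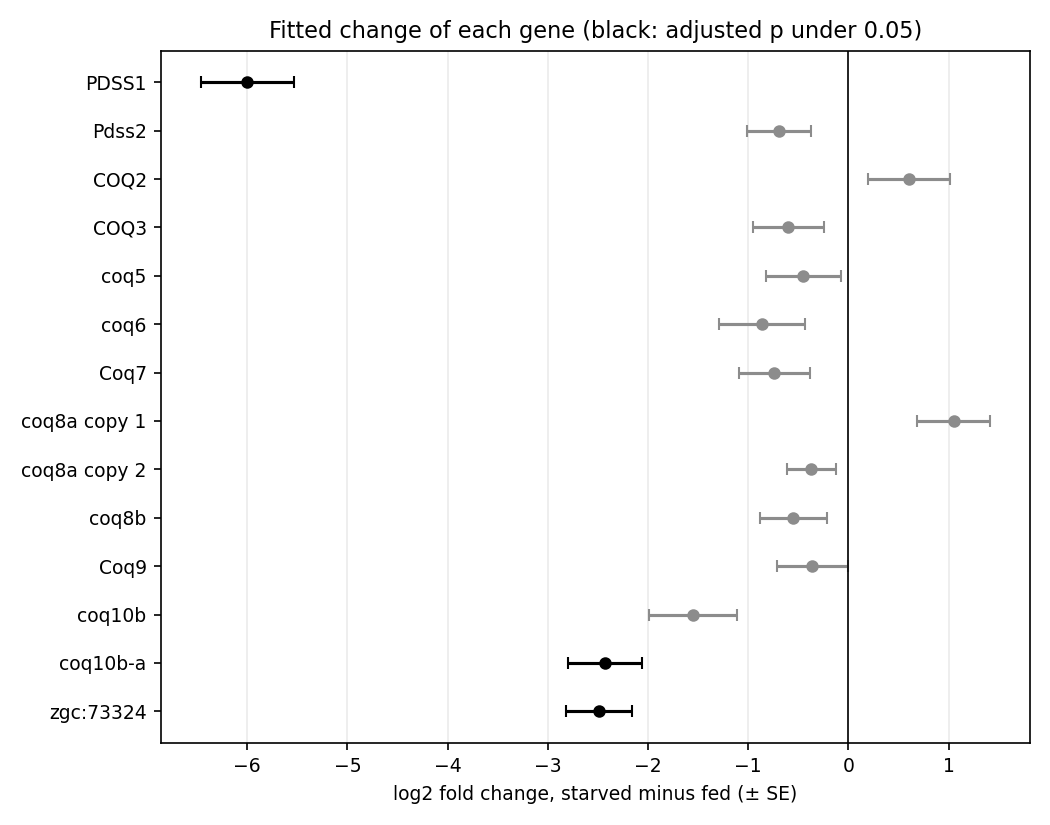
Fitted log2 fold change, starved minus fed, of each gene with its standard error; black points passed an adjusted p under 0.05. PDSS1 lies at -6.00, the COQ10 genes between -2.49 and -1.55, and the other genes between -0.86 and 1.05.

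The members varied among themselves. In all, 11 of 13 had a negative and 2 a positive log2 fold change (COQ2 and copy 1 of coq8a), with a median of -0.60 against -0.03 over all tested genes. Starved and fed libraries did not overlap in CPM for 6 of 13 genes, against 31.1% of all tested genes. Copy 2 of coq8a was among the 6 by a narrow gap, 42.3 CPM in starved replicate 1 against 42.8 CPM in fed replicate 1. In FPKM its groups overlapped, with fed replicate 1 at 17.6 and starved libraries at 20.5 to 24.5. A fitted change of at least 2-fold was found for 4 of 13, against 18.0% of all tested genes. Fed replicate 1 was the highest library for 8 of 13 genes in CPM and for 7 of 13 in FPKM. The share of all tested genes that are highest in it was not counted, so this is not read as a trait of the group. Its part in the median was measured by leaving it out. The median was then -0.26, with 9 negative and 4 positive members, while PDSS1 stayed at -5.56 (edgeR adjusted p = 0.000141). For the 12 genes other than PDSS1 the median was -0.57 with all libraries and -0.20 without fed replicate 1.

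Ordered by mean FPKM, starved liver had copy 1 of coq8a first (80.3 ± 13.2 FPKM), then Coq7 (56.9 ± 6.89), Coq9 (45.8 ± 1.71) and coq6 (38.2 ± 6.29). The ranges of Coq9 and coq6 overlapped, and those of the higher neighbours did not. Fed liver had PDSS1 first (442 ± 98.7 FPKM), then Coq7 (87.3 ± 24.3), coq6 (64.8 ± 28.5), Coq9 (54.2 ± 13.2) and copy 1 of coq8a (40.5 ± 24; SD, n = 3 per group throughout). Only PDSS1 was separate from its neighbour among these 5, since the ranges of each later pair overlapped. The lowest places were held by coq10b-a in starved liver (1.67 ± 0.239 FPKM) and by COQ2 in fed liver (2.38 ± 1.38 FPKM).

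The genes with a profile most like PDSS1 were looked up over the 6 libraries by the root mean square difference of log2 CPM, each gene centred on its own mean, among 6493 other tested genes that carry a symbol and average at least 3 log2 CPM. The nearest was trmt2b, a tRNA methyltransferase gene, at a distance of 0.321, with 12.6, 22.3 and 20.3 CPM in starved libraries and 1366, 628 and 939 CPM in fed libraries. Farther off lay a Saa3 gene, an acute phase protein, at 0.62, ca1, a carbonic anhydrase, at 0.654, and a second Saa3 gene at 0.878. The first Saa3 gene had 8.78, 9.16 and 8.66 CPM in starved libraries and 725, 145 and 440 CPM in fed libraries. Since 2 groups of 3 libraries set most of this distance, it describes genes that share the large gap between groups. Among the ubiquinone genes themselves, coq10b-a was nearest to PDSS1 at 1.88 and coq10b next at 2.32, and the others lay between 2.63 and 3.61.

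The supply of the tail was followed through the genes of the mevalonate and isoprenoid route. Of 11 tested genes, 1 fell, 0 rose and 10 did not pass, against 5.16% of all tested genes called. The median log2 fold change was -0.89. At an unadjusted p under 0.05 there were 5 of the 11, against 21.9% of all tested genes. With the DESeq2 Wald test, which called 10.1% of genes, 3 fell. In the edgeR fit without fed replicate 2, which called 1.69% of tested genes, 3 fell as well. In the edgeR fits without fed replicate 3 (3.40% called) or a starved library 0 did. The gene that fell was IDI1, which interconverts the building blocks of isoprenoids, with 69.5, 33.9 and 50.2 CPM in starved libraries and 433, 123 and 315 CPM in fed libraries. It fell by 2.50 on the log2 scale (standard error 0.507; edgeR adjusted p = 0.0304), and was not called in fits that left out fed replicate 3 or a starved library (adjusted p up to 0.142). FDPS, which makes farnesyl diphosphate, had 54.1, 25.5 and 47.4 CPM in starved libraries and 322, 50 and 207 CPM in fed libraries, so that fed replicate 2 lay among the starved libraries. Its log2 fold change of -2.19 did not pass (edgeR adjusted p = 0.0884), but it passed without fed replicate 2 and with the DESeq2 Wald test (lowest adjusted p 0.00411). Ggps1, which makes the geranylgeranyl diphosphate used by other pathways, had 4.61 ± 0.132 CPM in starved and 5.53 ± 1.65 CPM in fed liver (SD, n = 3 each; edgeR adjusted p = 0.662). Fed replicate 2 was the lowest fed library for IDI1 and FDPS, whereas fed replicate 3 was the lowest for PDSS1.

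Other enzymes that use long or short prenyl chains were listed beside them. Of 11 tested, 1 fell, 0 rose and 10 did not pass, against 5.16% of all tested genes called. Their median was -0.39. At an unadjusted p under 0.05 there were 4, against 21.9%, and 3 fell with the DESeq2 Wald test, against 10.1%. DHDDS and nus1, the subunits of the prenyltransferase for dolichol, stood at log2 fold changes of -1.27 and -1.04, neither past the threshold (edgeR adjusted p = 0.0784 and 0.14).

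The ring of ubiquinone comes from tyrosine. In the list for this route and for 4-hydroxybenzoate, 1 of 11 tested genes fell, 0 rose and 10 did not pass, with a median of -0.23. Over all tested genes 5.16% were called. At an unadjusted p under 0.05 there were 5 of the 11, against 21.9%. With the DESeq2 Wald test 3 fell and 1 rose, against 10.1% of genes called. The gene that fell was aldh9A1, an aldehyde dehydrogenase, with 138, 192 and 336 CPM in starved libraries and 3201, 1682 and 805 CPM in fed libraries. It fell by 3.09 on the log2 scale (standard error 0.595; edgeR adjusted p = 0.0257), and was not called in fits that left out fed replicate 2 or a starved library (adjusted p up to 0.129). A related gene of the list, aldh9a1b, had overlapping groups and a log2 fold change of -0.23 (edgeR adjusted p = 0.646). HPDL, the enzyme of this route that in human cells feeds 4-hydroxybenzoate to ubiquinone, was represented by 2 genes. The one spelled HPDL had 2.2, 0.461 and 3.01 CPM in starved libraries and 7.54, 9.51 and 9.7 CPM in fed libraries, with a log2 fold change of -2.24 (edgeR adjusted p = 0.0594), and the one spelled Hpdl had -2.10 (edgeR adjusted p = 0.131). The groups did not overlap in either gene, and neither passed in the edgeR fit with all libraries.

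Of 12 tested ADCK kinases and regulators of ubiquinone synthesis, 0 were called by edgeR, with a median of 0.15. At an unadjusted p under 0.05 there were 3, against 21.9% of all tested genes, and the DESeq2 Wald test called 1 (ADCK5, lower), against 10.1%. The edgeR fit without fed replicate 1 called 2 (PARL higher and Stard7 lower), against 12.3% of the genes tested in it. pptc7, a mitochondrial phosphatase that acts on Coq7 in yeast, had 1 copy at 17.7, 13.2 and 14.2 CPM in starved libraries and 4.64, 6.28 and 10.9 CPM in fed libraries (log2 fold change 1.05; edgeR adjusted p = 0.121), and a second copy with a log2 fold change of 0.20.

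Enzymes that pass electrons to ubiquinone differed in direction, with 7 positive and 9 negative log2 fold changes. Of 16 tested, 1 rose, 0 fell and 15 did not pass, with a median of -0.10, against 5.16% of all tested genes called. At an unadjusted p under 0.05 there was 1, against 21.9% of all tested genes. The edgeR fit without fed replicate 1 called 2, both higher, against 12.3% of the genes tested in it. With all libraries, the gene that rose was a copy of Prodh, proline dehydrogenase. It had 21.8, 46.1 and 53.7 CPM in starved libraries and 0.232, 0.38 and 0.385 CPM in fed libraries (log2 fold change 6.84; edgeR adjusted p = 0.0015). Another Prodh gene had a log2 fold change of 0.02. The 5 tested genes of succinate dehydrogenase had log2 fold changes from -0.56 to 0.20, and ETFDH, which passes electrons from fatty acid oxidation, had 108 ± 31 CPM in starved and 141 ± 46.6 CPM in fed liver (SD, n = 3 each; edgeR adjusted p = 0.565). Of 19 genes taken as measures of mitochondrial content, such as porins, import receptors and citrate synthase, 0 were called by edgeR and by DESeq2, and 3 had an unadjusted p under 0.05, against 21.9% of all tested genes. Without fed replicate 1, edgeR called 1 of them (TFAM, lower), against 12.3% of the genes tested in that fit. With all libraries, 15 of the 19 had a negative and 4 a positive log2 fold change, against 6925 negative and 6413 positive over all tested genes. Their median was -0.26, and their summed level was 604 to 691 CPM in starved and 603 to 925 CPM in fed libraries.

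**Figure D5:**
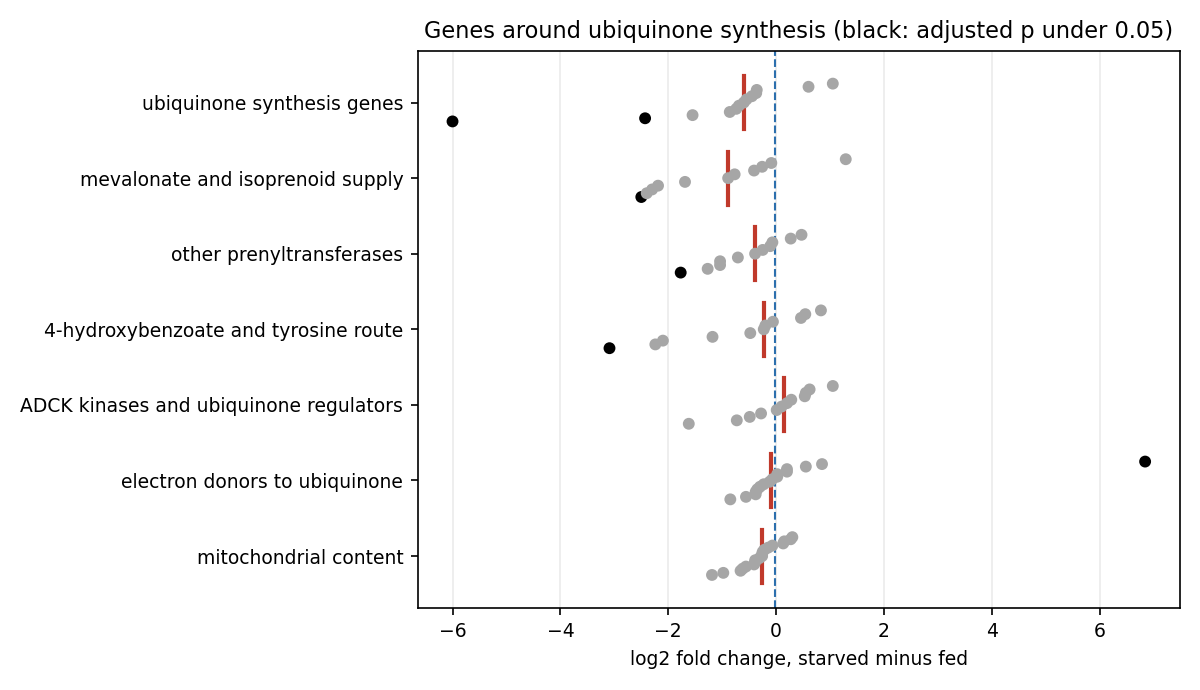
Log2 fold change, starved minus fed, of each tested gene in the ubiquinone group and the 6 lists around it; black points passed an adjusted p under 0.05, red bars are list medians and the dashed line is the median of all tested genes. List medians run from -0.89 to 0.15, with PDSS1 at -6.00 and Prodh at 6.84 as the points farthest to the left and right.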

How the data were processed

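Whole-liver RNA was made into stranded mRNA libraries and sequenced as paired ends, per the labels' protocols. The submitters' processing notes name HISAT2, HTSeq, Cufflinks and Trimmomatic, without roles or versions. Neither they nor the file headers give a genome build. The deposited count table holds raw counts per gene, per the file headers. Deposited FPKM values were used as given by the authors. The authors' deposited comparison lists the starved over fed ratio of each gene and its q-value, from a test that is not named. It had 1534 genes with a q-value under 0.05, the number that the DESeq2 Wald test called here. It is no separate support beside that test. Its ratio had the sign of the FPKM group ratio in 96.8% of genes. Read totals by alignment class are counts in the deposited mapping table. Whether counting used strand is not given.

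Replicates were numbered in the order listed. No pair of libraries within a group agreed within counting noise (chi-square per degree of freedom 33.6 to 149). Counts were fitted with edgeR 4.0.16 in R 4.3.3 (filterByExpr, TMM, robust quasi-likelihood F test, starved minus fed). The standard error of a log2 fold change is its size divided by the square root of F. CPM values use TMM library sizes, and log2 CPM a prior count of 0.5. Alternatives were DESeq2 1.42.0, upper-quartile scaling, voom in limma 3.58.1, 2 other filters, limma on log2(FPKM + 1) and log2(FPKM + 0.1), and each library left out. The edgeR fit was tested first on simulated data with 50 changed genes at each fold. It called 1 at 2-fold, 25 at 4-fold, 48 at 8-fold and 47 at 16-fold. Of 133 calls, 12 were false. A gene that did not pass may therefore still differ by 2-fold or by 4-fold. Named genes were all members, up to 3 called genes per list with the smallest p, IDI1, FDPS and Ggps1, and the 5 nearest profiles, of which some genes are not reported here; others named were chosen after their values were seen. Members and lists were chosen with earlier results of these data known. The files hold no sequences, so none are shown.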

Additional observations from a re-analysis of the deposited data

How the results depend on the processing

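No paired analysis was possible because the library codes in the labels share only the letter E between the groups, in fed replicate 3 and starved replicate 3, which makes 1 pair. PDSS1 kept its direction and its side of the threshold in all 15 alternatives, with log2 fold changes of -6.21 to -5.56 when a library was left out and adjusted p up to 0.0314. The number of ubiquinone genes called was 2 with the other scalings, filters and limma fits. It was 4 with the DESeq2 Wald test and 4 by the authors' deposited q-value, and 1 to 2 when a library was left out. It was 3 with zgc:73324 added and 3 at an adjusted p under 0.1; these 2 settings and the authors' q-value were added after seeing the data. Over all genes the number called was 688, and was 1534 with the DESeq2 Wald test and 102 to 1704 when a library was left out: 102, 146 and 131 without starved replicates 1, 2 and 3, 232 and 469 without fed replicates 2 and 3, and 1704 without fed replicate 1. The cause was not tested. The PDSS1 to Pdss2 ratio difference was -5.25 on log2(FPKM + 0.1) and -5.39 to -5.03 when a library was left out. Summing copies gives the same ratio, since each symbol has 1 gene. For single genes other than PDSS1, 367 of 390 values kept their direction and their side of the threshold, 16 lost the call and 4 gained it. In 3 the direction turned, all for genes that were not called: with a library left out, Coq9 ranged from -0.58 to 0.12 and coq5 from -0.68 to 0.00 (both highest without fed replicate 1), and Ggps1 from -0.44 to 0.00 (highest without fed replicate 3). Genes at a few CPM, such as COQ2 and coq10b-a, rest on 11 to 114 counts a library, which limits their precision.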
